A study of Homo sapiens with 6 samples.

Results

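A group of 10 JmjC-domain genes of the lysine demethylase (KDM) family was examined in HCT116 colorectal carcinoma cells with and without LSD1, to ask whether the expression of any of them changes when LSD1 is lost. The rule took these genes by symbol and not by a measured value, but they were chosen with earlier results of these data known. They were KDM3A, KDM3B, KDM4A, KDM4B, KDM4C, KDM5A, KDM5B, KDM5C, KDM6B and KDM7A. Each of the 10 symbols matched 1 row among the 60240 genes of the deposited count table. All 10 passed the filter on low counts, with between 436 and 4488 counts in any library. RNA-seq was done on polyA RNA from 3 WT libraries and 3 LSD1 KO libraries. In the LSD1 KO cells, exon 1 of KDM1A, the gene of LSD1, had been targeted with CRISPR/Cas9 and single clones had been expanded, and the sources used here do not give the number of clones behind the 3 libraries. Libraries are numbered 1, 2 and 3 in both groups. The methods say in general terms that experiments had biological replicates, but neither they nor the labels say whether these libraries came from separate cultures or clones, so the p-values measure the spread between these libraries, which may be in part technical.

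Histone lysine demethylases fall into 2 enzyme classes. LSD1 and its paralog KDM1B are flavin-dependent amine oxidases and remove methyl groups from mono- and dimethylated H3K4, but cannot act on trimethylated lysine. The JmjC enzymes use iron and 2-oxoglutarate, and some of them can also remove the third methyl group. Within this class the KDM5 enzymes act on H3K4, the KDM3 enzymes on H3K9, the KDM4 enzymes on H3K9 and H3K36, KDM6B on H3K27, and KDM7A on H3K9 and H3K27.

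Library totals ranged from 25379279 to 29186963 counts. KDM1A, on chromosome 1 from 23019468 to 23083689 (GRCh38), was examined first as the targeted gene. Its level was 223.1 ± 8.78 CPM (read counts relative to the library total, after TMM scaling) in WT and 28.4 ± 1.30 CPM in LSD1 KO cells (SD, n = 3 libraries each). All LSD1 KO libraries lay below all WT libraries, and the log2 fold change was -2.97 (standard error 0.15, edgeR q value 0.000451). Of the colorectal epithelial markers, KRT8, KRT18, KRT19, CDH1, EPCAM and CDX2 were expressed, while VIL1, LGALS4, CDH17 and CDX1 stayed under 1 CPM or at 0 in all 6 libraries. The summed level of 7 fibroblast markers ranged from 21.5 to 24.8 CPM in WT and from 31.7 to 35.5 CPM in LSD1 KO, nearly all of it from COL1A1. Of the 7, 2 were tested, and both had a log2 fold change above 0 (median 0.53). COL1A1 was higher in LSD1 KO with a q value under 0.1 when replicate number was fitted as a block. The fibroblast markers COL1A2, COL3A1, DCN and LUM were at or near 0 in all libraries, as were the immune markers PTPRC, CD3E and MS4A1. Of the other immune markers, CD68, which is also a lysosomal protein, ranged from 16.06 to 19.65 CPM in WT and from 22.07 to 32.65 CPM in LSD1 KO, and carried most of the summed immune level (17.2 to 20.5 CPM in WT and 23.5 to 34.3 CPM in LSD1 KO). The 4 endothelial markers found summed to between 0.681 and 2.27 CPM. Of the 6 expressed epithelial markers, 1 had a log2 fold change above 0, and the median of the 6 was -0.27. EPCAM ranged from 172.8 to 248.0 CPM in WT and from 77.55 to 133.9 CPM in LSD1 KO, and KRT18 was also below WT in all LSD1 KO libraries (396.2 to 667.2 CPM against 348.3 to 374.6 CPM). KRT19 was the 1 above 0. It was higher in LSD1 KO in all 3 pairs, by 0.45 on the log2 scale when replicate number was fitted as a block. Its q value was 0.123 with the block, and 0.00373 with DESeq2 and the block. The groups of KRT19 overlapped, as did those of KRT8, CDH1 and CDX2. EPCAM was lower in LSD1 KO with a q value under 0.1 in the fit with the block. The part of these markers in the results was not tested.

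To compare levels between genes, CPM were divided by the length of the canonical transcript in kilobases. On this scale KDM1A was the most expressed of 23 lysine demethylases in WT cells, with 72.3 ± 2.85 CPM per kb (SD, n = 3). KDM3B followed with 17.9 ± 4.504 CPM per kb, KDM3A with 14.1 ± 1.74 and KDM5C with 14.1 ± 1.999. The WT library ranges of KDM3B and KDM3A overlapped, and so did those of KDM3A and KDM5C. KDM4A had 11.6 ± 0.988 CPM per kb and KDM4B 8.69 ± 0.801 CPM per kb, and the range of each was clear of its neighbours among the 10 genes. KDM4C (5.28 ± 0.224 CPM per kb), KDM6B (4.97 ± 0.762), KDM5A (3.96 ± 1.26) and KDM5B (3.72 ± 0.608) came next, and the WT range of each overlapped that of its neighbour. All KDM4C libraries were nevertheless above all KDM5A and KDM5B libraries. KDM7A was the lowest of the 10, with 2.23 ± 0.687 CPM per kb.
In LSD1 KO cells, KDM1A was at 9.22 ± 0.420 CPM per kb. KDM1A made up 30.1% ± 3.06 of the summed per-kb level of the 23 genes in WT and 4.93% ± 0.313 in LSD1 KO (SD, n = 3). The 10 JmjC genes together had 86.5 ± 11.3 CPM per kb in WT, with a library range of 73.6 to 94.3. Their sum was 98.7 ± 5.60 CPM per kb in LSD1 KO, with a range of 92.2 to 102.0, which overlaps that of WT. The mean of this sum was 12.2 CPM per kb higher in LSD1 KO, against a KDM1A level that fell by 63.1 CPM per kb. The paper reports that LSD1 depletion in the knockout clones was checked by Sanger sequencing and immunoblotting. From bulk RNA libraries alone, less RNA per cell and fewer expressing cells cannot be told apart.

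**Figure D1:**
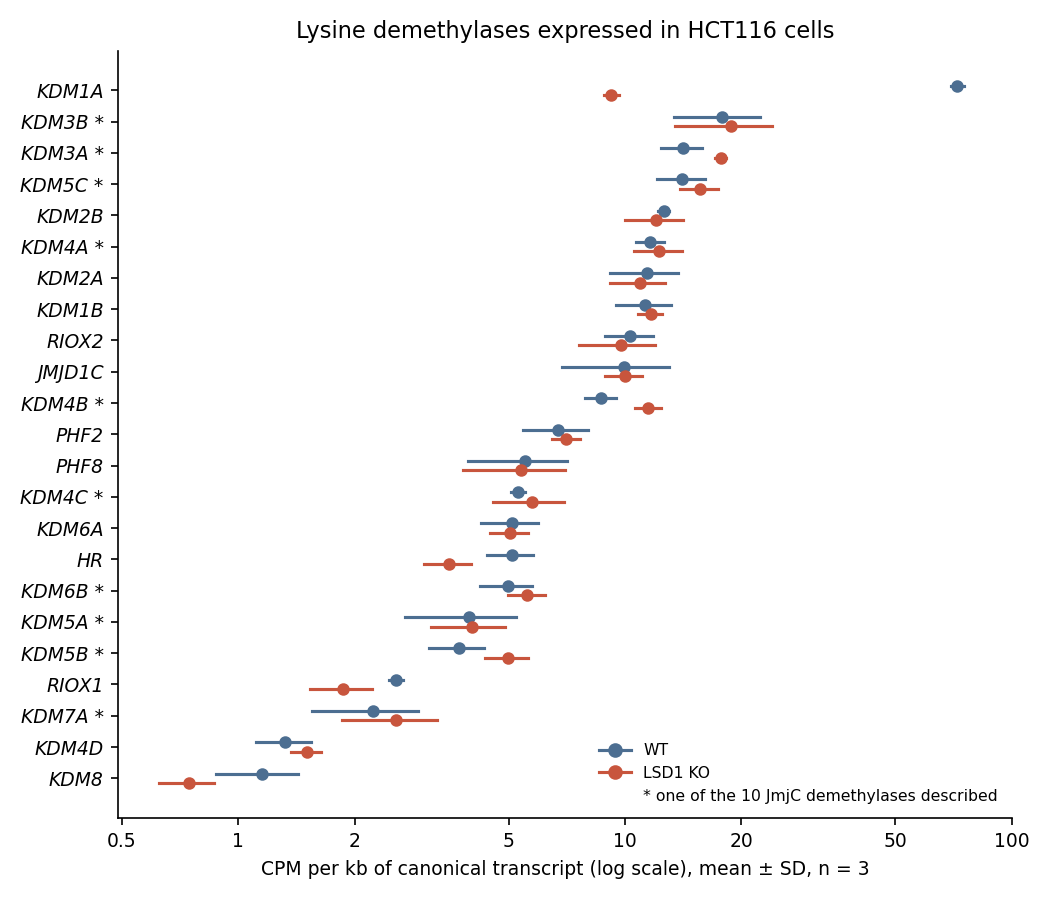
CPM per kilobase of canonical transcript (log scale) for 23 lysine demethylases in WT and LSD1 KO cells, shown as mean ± SD over 3 libraries and ordered by the WT mean. KDM1A drops from 72.3 to 9.22 CPM per kb, while the largest fitted change of the 10 genes marked with an asterisk is 1.34-fold, for KDM5B.

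The 10 genes were compared between LSD1 KO and WT with edgeR's quasi-likelihood test, fitted to the 17672 genes that passed the filter, with a gene called at a q value (Benjamini-Hochberg adjusted p) under 0.1. No member of the group was called in this fit (0 of 10), in which 0.00566% of all genes tested, 1 gene, were called. At an unadjusted p under 0.05, 2 of the 10 passed, KDM4B and KDM5B, beside 3.12% of all genes. Because same-numbered WT and LSD1 KO libraries deviated together, the fit was repeated with the replicate number as a block. None of the 10 was called with the block either, while 1.6% of all genes were, and 3 of the 10 (KDM3A, KDM4B and KDM5B) had an unadjusted p under 0.05, beside 13.4% of all genes. DESeq2's Wald test without the block called 0 of 10 (0.376% of genes with an adjusted p) and had 1 of the 10, KDM4B, at an unadjusted p under 0.05, beside 2.62% of genes. DESeq2 with the block called 1 of 10, KDM4B, beside 4.21% of genes, and had 3 at an unadjusted p under 0.05, beside 11.8% of genes.
The log2 fold changes of all 10 genes were above 0 in the fits with and without the block, as were those of 50.1% of all genes without the block and 50.5% with it. Of the 12 other lysine demethylases tested, 4 were above 0 without the block. The median of the 10 genes was 0.16 without the block and 0.17 with it, where the medians of all genes were 0.00082 and 0.0030. The median of the 10 depended on single libraries. It was 0.061 without WT replicate 2, 0.085 without LSD1 KO replicate 3 and 0.26 without WT replicate 3, and with the block it was 0.073 without pair 2. The count of positive values was not stable to the libraries used, and leaving out 1 library at a time gave between 7 and 10 genes above 0. LSD1 KO was higher in all 3 same-numbered pairs for 6 of the 10 genes, as it was for 18.8% of all genes. In 2 of the 10 genes, KDM3A and KDM4B, every LSD1 KO library lay above every WT library, which held for 4.23% of all genes. None of the 10 had every LSD1 KO library below every WT library, a pattern seen in 3.51% of all genes. Replicate 2 was the lowest WT library in 9 of the 10 genes and the lowest LSD1 KO library in 4. When replicate 2 was left out of both groups, KDM3A, KDM4A and KDM4B had every LSD1 KO library above every WT library, as did 15.1% of all genes.

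**Figure D2:**
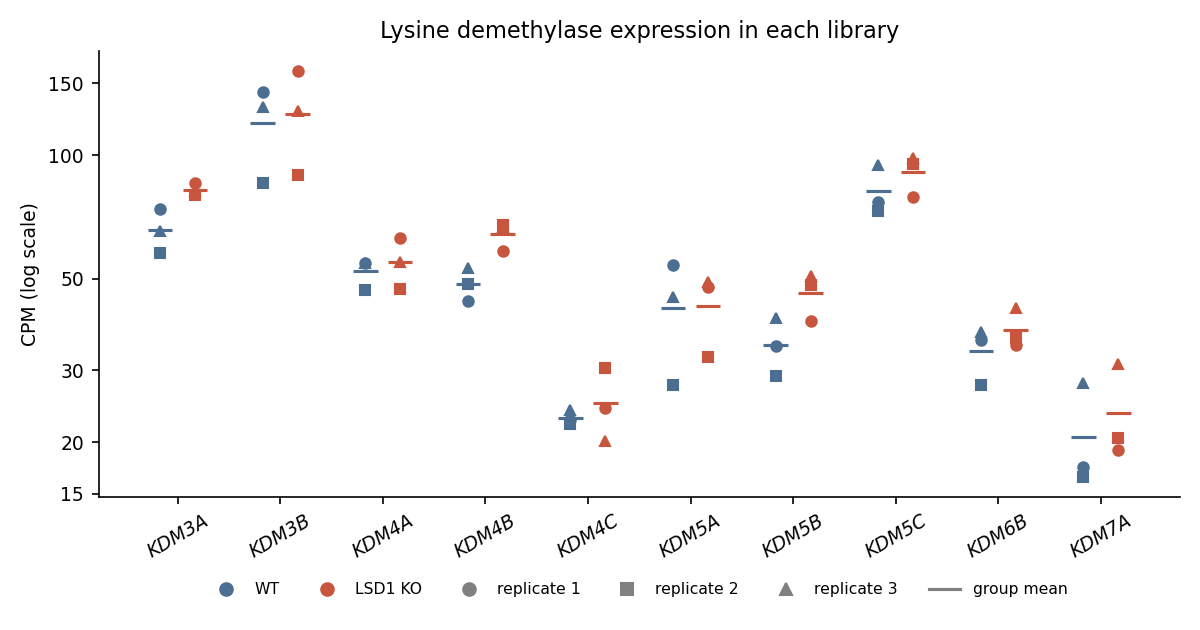
CPM of the 10 genes (log scale) in each WT and LSD1 KO library, with the replicate number given by the marker and the group mean by a line. KDM3A and KDM4B are the 2 genes whose LSD1 KO points all lie above their WT points. Replicate 2 (squares) is the lowest library of both groups in KDM3A, KDM3B, KDM4A and KDM5A.

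The sizes of change that the data leave room for were read from the 95% intervals. Without the block, the interval of each of the 10 genes lay between a halving and a doubling, as it did for 64% of all genes tested. The highest upper limit was 1.79-fold, for KDM5B. With the block, the highest upper limit was 1.63-fold, again for KDM5B, and the intervals of 75.2% of all genes lay between a halving and a doubling. Standard errors on the log2 scale ranged from 0.15 to 0.27 without the block and from 0.088 to 0.14 with it, and all 10 were smaller with the block. The interval with the block lay above 0 for 3 genes, KDM3A, KDM4B and KDM5B, and included 0 for the other 7. These intervals are for single genes and are not adjusted for the number of genes.

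**Figure D3:**
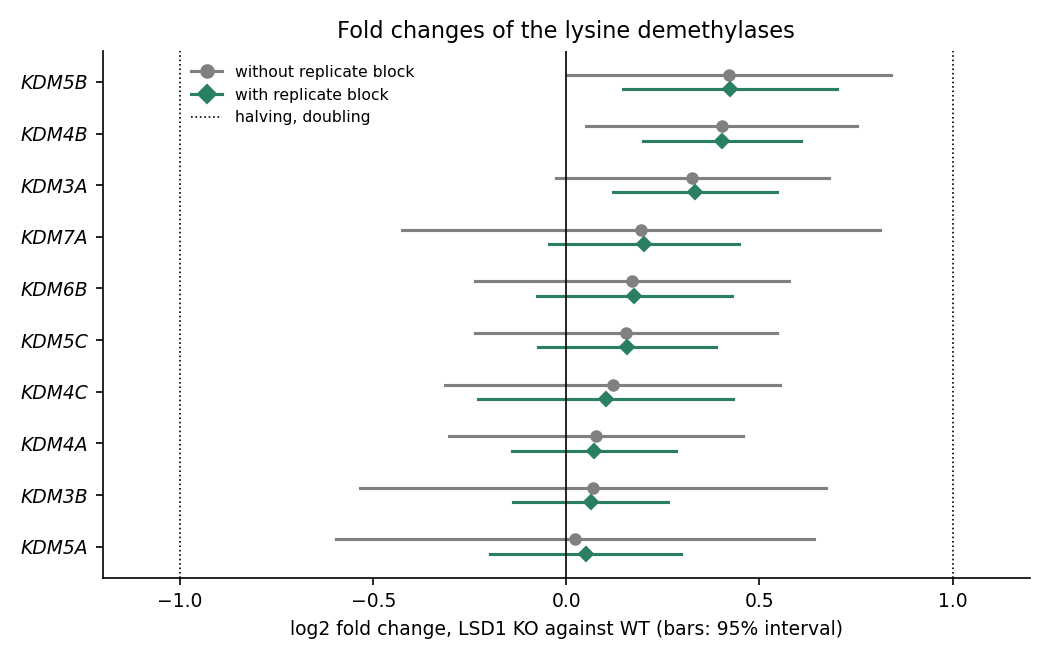
Log2 fold change of LSD1 KO against WT for the 10 genes with 95% intervals, from edgeR without the replicate block (grey circles) and with it (green diamonds). All intervals lie between the dotted lines that mark a halving and a doubling, and those of KDM3A, KDM4B and KDM5B with the block lie above 0.

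Among the 3 KDM5 enzymes, which demethylate H3K4, KDM5B showed the largest difference and KDM5A the smallest. KDM5B (ENSG00000117139.18), on chromosome 1 from 202724495 to 202808421, is a luminal and cancer-associated demethylase of di- and trimethylated H3K4. It was at 34.38, 28.96 and 40.26 CPM in WT replicates 1, 2 and 3 and at 39.52, 48.34 and 50.88 CPM in LSD1 KO. The groups overlapped at a single point, with LSD1 KO replicate 1 just below WT replicate 3. Its log2 fold change was 0.42 (standard error 0.18, q value 0.999), and with the block it was 0.42 (standard error 0.12, q value 0.184). LSD1 KO was higher in all 3 pairs, by 0.20, 0.74 and 0.34 on the log2 scale, so pair 2 differed most. Without pair 2 the log2 fold change with the block was 0.25 (q value 0.288), below the 0.35 of KDM4B in that fit, and with single libraries left out of the fit without the block it ranged from 0.30 to 0.55.
KDM5C (ENSG00000126012.12), an X-linked demethylase of the same mark, lies on chromosome X from 53176277 to 53225207. Its level was 76.95, 73.21 and 94.93 CPM in WT and 79.32, 95.27 and 98.32 CPM in LSD1 KO. The groups overlapped, since WT replicate 3 was above LSD1 KO replicate 1 and close to the other LSD1 KO libraries. The log2 fold change with the block was 0.16 (95% interval -0.072 to 0.39, q value 0.549), and 0.030 without pair 2. Without the block it was 0.15, and it was 0.075 without WT replicate 2, 0.10 without LSD1 KO replicate 2, 0.096 without LSD1 KO replicate 3, 0.28 without WT replicate 3 and 0.24 without LSD1 KO replicate 1.
KDM5A (ENSG00000073614.13), the RB-binding member of the KDM5 enzymes, lies on chromosome 12 from 280057 to 389320. Its values were 54.17, 27.63 and 45.29 CPM in WT and 47.67, 32.2 and 49.26 CPM in LSD1 KO. Replicate 2 was the lowest library in both groups, 0.84 below the mean of the other 2 on the log2 scale in WT and 0.59 below it in LSD1 KO. Within pairs, LSD1 KO was lower in pair 1 and higher in pairs 2 and 3. The log2 fold change was 0.023 without the block and 0.050 with it (95% interval -0.20 to 0.30, q value 0.883). Summed over the 3 KDM5 genes, the level was 21.7 ± 3.31 CPM per kb in WT and 24.7 ± 2.32 CPM per kb in LSD1 KO.

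KDM3A and KDM3B demethylate mono- and dimethylated H3K9, and differed in how clearly their groups parted. KDM3A (ENSG00000115548.17), on chromosome 2 from 86437044 to 86492716, is a coactivator of nuclear receptors and a known target of hypoxia-inducible factors (HIF). It was at 73.97, 57.73 and 65.61 CPM in WT replicates 1, 2 and 3 and at 85.5, 80.06 and 81.74 CPM in LSD1 KO. All LSD1 KO libraries were higher than all WT libraries, and the LSD1 KO libraries were closer to each other (SD 2.79 CPM) than the WT libraries were (SD 8.12 CPM). The log2 fold change was 0.33 (standard error 0.16, q value 0.999), and 0.33 with the block (standard error 0.093, q value 0.181), which is 1.26-fold with a 95% interval from 1.09 to 1.46. Neither fit called it. With any single library left out it stayed between 0.23 and 0.42 on the log2 scale.
KDM3B (ENSG00000120733.14), on chromosome 5 from 138352685 to 138437027, had 143.1, 85.74 and 131.3 CPM in WT and 160.5, 89.41 and 128 CPM in LSD1 KO. Same-numbered libraries lay close together, and replicate 2 was below the other 2 libraries by 0.68 on the log2 scale in both groups. The log2 fold change with the block was 0.063 (95% interval -0.14 to 0.26, q value 0.804). Its standard error was 0.26 without the block and 0.088 with it. Summed over KDM3A and KDM3B, the level was 31.9 ± 6.17 CPM per kb in WT (25.1 to 37.1) and 36.4 ± 5.87 CPM per kb in LSD1 KO (30.5 to 42.2). The library ranges of this sum overlapped. Whether KDM3A and KDM3B differ in their response was not tested.

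The KDM4 enzymes act on di- and trimethylated H3K9 and H3K36, and KDM4B was the one that came closest to a call. KDM4B (ENSG00000127663.15), on chromosome 19 from 4969113 to 5153598, is a cofactor of hormone receptors and, like KDM3A, a known HIF target. It was at 44.28, 48.57 and 53.25 CPM in WT and at 58.58, 67.79 and 66.75 CPM in LSD1 KO. The groups did not overlap. Its log2 fold change was 0.40 (standard error 0.15, q value 0.999), and 0.40 with the block (standard error 0.089, q value 0.106), which is 1.32-fold with a 95% interval from 1.148 to 1.524. The pairs differed by 0.40, 0.48 and 0.33 on the log2 scale, the narrowest spread of the 3 genes with intervals above 0. DESeq2 with the block called it (log2 fold change 0.40, q value 0.0436), and edgeR with the block called it once pair 2 was left out (log2 fold change 0.35, q value 0.0801). Without pair 1 the value was 0.40 (q value 0.144) and without pair 3 it was 0.45 (q value 0.402), with no call.
KDM4A (ENSG00000066135.13), on chromosome 1 from 43650149 to 43705518, had 54.78, 47.05 and 54.67 CPM in WT and 62.9, 47.16 and 55.09 CPM in LSD1 KO. The pairs differed by 0.20, 0.0032 and 0.011 on the log2 scale, so only pair 1 stood out, and the log2 fold change with the block was 0.072 (95% interval -0.14 to 0.28, q value 0.787). Its counts are less certain than those of the others, because 45.5% of the 31-base words of its canonical transcript occur in ENSG00000284989 and 9.31% occur in the antisense RNA KDM4A-AS1. ENSG00000284989 had 0 counts in all 6 libraries and KDM4A-AS1 had between 79 and 132 counts. For each of the other 9 genes, at most 1.02% of the words occurred in other genes.
KDM4C (ENSG00000107077.19), on chromosome 9 from 6720863 to 7175648, had 22.63, 22.11 and 23.99 CPM in WT and 24.21, 30.39 and 20.1 CPM in LSD1 KO. The WT libraries were tight, whereas the LSD1 KO libraries lay both above and below them, with the highest value in replicate 2 and the lowest in replicate 3. The log2 fold change with the block was 0.10 (95% interval -0.23 to 0.43, q value 0.808), and turned to -0.096 when pair 2 was left out. Summed over KDM4A, KDM4B and KDM4C, the level was 25.6 ± 1.502 CPM per kb in WT (24.3 to 27.2) and 29.5 ± 0.624 CPM per kb in LSD1 KO (28.8 to 30.1). The library ranges of this sum did not overlap, while those of the KDM3 and KDM5 sums did. These sums were given no test, and how often such sums part over all genes was not computed. KDM4B, whose own groups did not overlap, went from 8.69 to 11.5 CPM per kb. KDM4A went from 11.6 to 12.3 and KDM4C from 5.28 to 5.74, and the groups of both overlapped.

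KDM6B and KDM7A reach beyond H3K4 and H3K9. KDM6B (ENSG00000132510.10), on chromosome 17 from 7834217 to 7854796, removes methyl groups from H3K27, the Polycomb mark of bivalent promoters, and is inducible by inflammatory signals. It was at 35.47, 27.6 and 37.21 CPM in WT and at 34.54, 35.92 and 42.37 CPM in LSD1 KO. The groups overlapped, and LSD1 KO was the lower library in pair 1. The log2 fold change with the block was 0.18 (95% interval -0.077 to 0.43, q value 0.545), with 0.058 without pair 2 and 0.28 without pair 1. Without the block it was 0.17, and it was 0.042 without WT replicate 2 and 0.075 without LSD1 KO replicate 3. KDM6A, its paralog on the X chromosome, was at -0.012 on the log2 scale in the blocked fit (q value 0.974).
KDM7A (ENSG00000006459.11), on chromosome 7 from 140084746 to 140176983, a demethylase with a PHD finger that reads methylated H3K4, had 17.42, 16.5 and 27.9 CPM in WT and 19.2, 20.52 and 31.01 CPM in LSD1 KO. Replicate 3 was the highest library in both groups. LSD1 KO was higher in all pairs, by 0.14, 0.31 and 0.15 on the log2 scale, and the log2 fold change with the block was 0.20 (95% interval -0.044 to 0.45, q value 0.468).

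**Figure D4:**
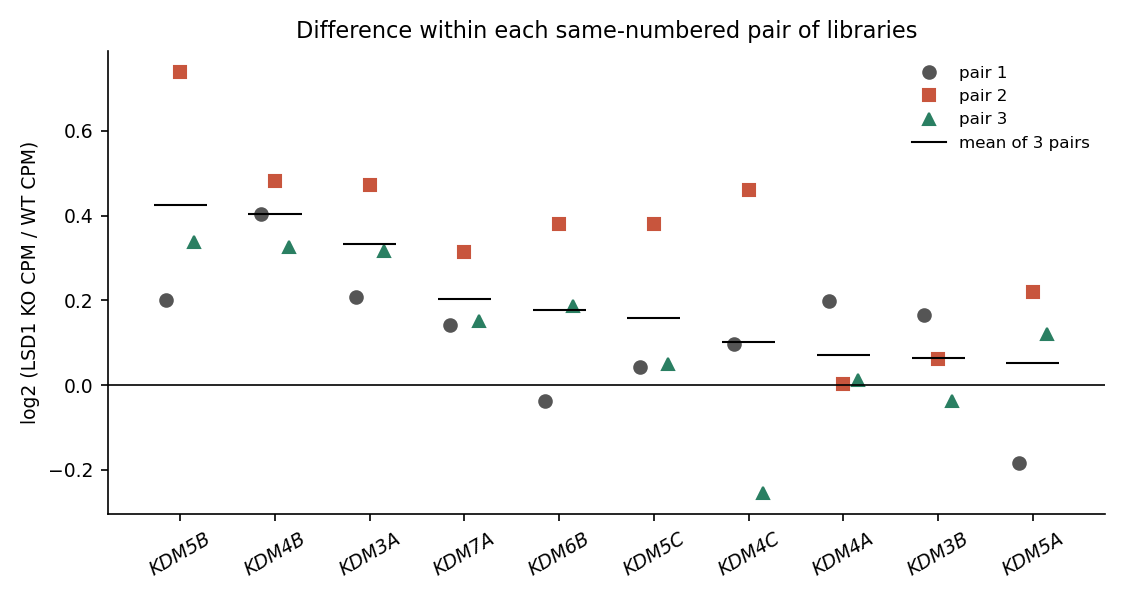
Log2 ratio of LSD1 KO to WT CPM within each same-numbered pair for the 10 genes, ordered by the mean of the 3 pairs (line). All 3 pairs lie above 0 for 6 genes, and for KDM5B, KDM4B and KDM3A the smallest of them is 0.20.

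The sequences before the start sites of KDM3A, KDM4B and KDM5B are given because these 3 genes had intervals above 0 with the block. All 3 are known to respond to hypoxia, but so may others of the 10, which was not examined. The core of the HIF binding motif was searched as ACGTG and as GCGTG, on both strands, in the 250 bases before each start. This choice was made after the expression values had been seen. The stretches come from RefSeq promoters on GRCh38.p14, are written 5′ to 3′ on the strand of the gene, and show matches to either core on either strand in capitals.
KDM3A, chr2:86441251-86441370, plus strand: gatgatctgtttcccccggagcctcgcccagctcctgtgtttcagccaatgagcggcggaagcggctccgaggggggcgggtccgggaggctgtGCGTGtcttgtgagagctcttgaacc
KDM4B, chr19:4968863-4968982, plus strand: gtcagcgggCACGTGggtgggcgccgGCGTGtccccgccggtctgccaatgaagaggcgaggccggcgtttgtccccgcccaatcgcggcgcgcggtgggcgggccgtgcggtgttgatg
KDM4B, chr19:4968993-4969112, plus strand: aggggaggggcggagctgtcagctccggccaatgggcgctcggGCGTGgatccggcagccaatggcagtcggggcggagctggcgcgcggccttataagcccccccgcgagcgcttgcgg
KDM5B, chr1:202808422-202808541, minus strand: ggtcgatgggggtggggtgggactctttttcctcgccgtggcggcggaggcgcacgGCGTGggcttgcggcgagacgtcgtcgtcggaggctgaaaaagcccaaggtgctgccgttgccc
For KDM3A the stretch lies before a listed start that is inside the gene as annotated. KDM3A held a match 26 bases before that start, KDM5B held one 64 bases before its start, and KDM4B held GCGTG at 224 and 77 bases and an E-box, CACGTG, that matches ACGTG on both strands and begins 241 bases before its start. At least 1 match was found in 9 of the 12 listed promoters of the 10 genes, which belong to 8 genes, all except KDM3B and KDM5C. Counted on both strands, KDM4C, whose interval with the block included 0, had 4 matches to ACGTG and 1 to GCGTG. Matches were therefore not limited to the 3 genes printed here. Over all 35116 listed promoters, 18.5% held ACGTG, 32.2% held GCGTG and 43.2% held either. A match to 5 letters describes the sequence and does not show binding.

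The other genes of the 2 enzyme classes were set beside the 10. KDM1B, the only paralog of LSD1, had 49.49, 43.95 and 60.27 CPM in WT and 51.1, 50.18 and 57.21 CPM in LSD1 KO. The groups overlapped and its log2 fold change with the block was 0.053 (95% interval -0.16 to 0.27, q value 0.854). Of 14 other lysine demethylases, 12 were tested and KDM4E and KDM4F were at 0 counts in all libraries. None of the 12 was called without the block. With it, 1 fell and 0 rose, where 0.549% of all genes fell and 1.05% rose. The gene that fell was HR, a hairless-type H3K9 demethylase and nuclear receptor corepressor. HR was at 25.12, 26.31 and 32.14 CPM in WT and at 18.49, 17.02 and 22.19 CPM in LSD1 KO, with no overlap. Its log2 fold change was -0.53 without the block (q value 0.999) and -0.53 with it (standard error 0.11, q value 0.0732). The call was lost without pair 3 (q value 0.383), where the log2 fold change was still -0.53, but not without pair 1 or pair 2. The 12 genes had a median log2 fold change of -0.046 without the block, and 4 of them were above 0. Their range ran from -0.63 for KDM8 to 0.18 for KDM4D, both under 5 CPM in all libraries. In 3 of the 12, HR, KDM8 and RIOX1, every LSD1 KO library lay below every WT library, as in 3.51% of all genes. In 0 of the 12 did every LSD1 KO library lie above, as in 4.23% of all genes. KDM8 and RIOX1 were not called with the block (q values 0.334 and 0.322), and RIOX1 was also low, at 4.05 to 6.59 CPM. Of the 8 other JmjC proteins, from JMJD4 with the lowest log2 fold change (-0.35) to TYW5 with the highest (0.24), none was called in either fit.

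Methyltransferases that set the marks which these enzymes remove were also examined. None of the 7 H3K4, 7 H3K9, 2 H3K27 or 7 H3K36 methyltransferases was called with or without the block. The list medians were -0.031, -0.032, 0.074 and -0.079 in that order, on the log2 scale without the block. For the H3K4 enzymes the log2 fold changes ran from -0.38 for SETD1B to 0.059 for KMT2A. For the H3K9 enzymes they ran from -0.26 for SUV39H1 to 0.25 for SETDB2. EZH2 had -0.14 and EZH1 0.29, and the H3K36 enzymes ran from -0.29 for SMYD2 to 0.12 for ASH1L. Enzymes that make or use 2-oxoglutarate, or make or use the inhibitory succinate or fumarate, were also without a call in both fits (0 of 16). They ran from -0.32 for GPT2 to 0.30 for IDH1.

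Since KDM3A, KDM4B and KDM5B are induced by hypoxia in many cells, 14 HIF targets were described, of which 13 were tested and CA9 was too low. None was called without the block. With the block, 4 of the 13 rose and 0 fell, beside 1.05% and 0.549% of all genes. P4HA1, a collagen prolyl hydroxylase, had a log2 fold change of 0.67 (q value 0.0222), and VEGFA, the angiogenic growth factor, had 0.45 (q value 0.0732). ANKRD37 had 0.80 (q value 0.0582), and NDRG1 had 0.86 (q value 0.0878). The calls of VEGFA and ANKRD37 were lost when pair 3 was left out (q values 0.370 and 0.253) while their log2 fold changes stayed at 0.45 and 0.79, and NDRG1 moved from 0.86 to 0.53 when pair 2 was left out. DESeq2 with the block called P4HA1, VEGFA and ANKRD37 but not NDRG1 (q value 0.131). SLC2A1, the glucose transporter, had the lowest value of the list, -0.17, and the list median was 0.27 without the block. NDRG1 was the highest without the block, at 0.98, but this rested on LSD1 KO replicate 2, without which it was 0.36 and below P4HA1 at 0.48. The part of these genes in the values of KDM3A, KDM4B and KDM5B was not tested.

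**Figure D5:**
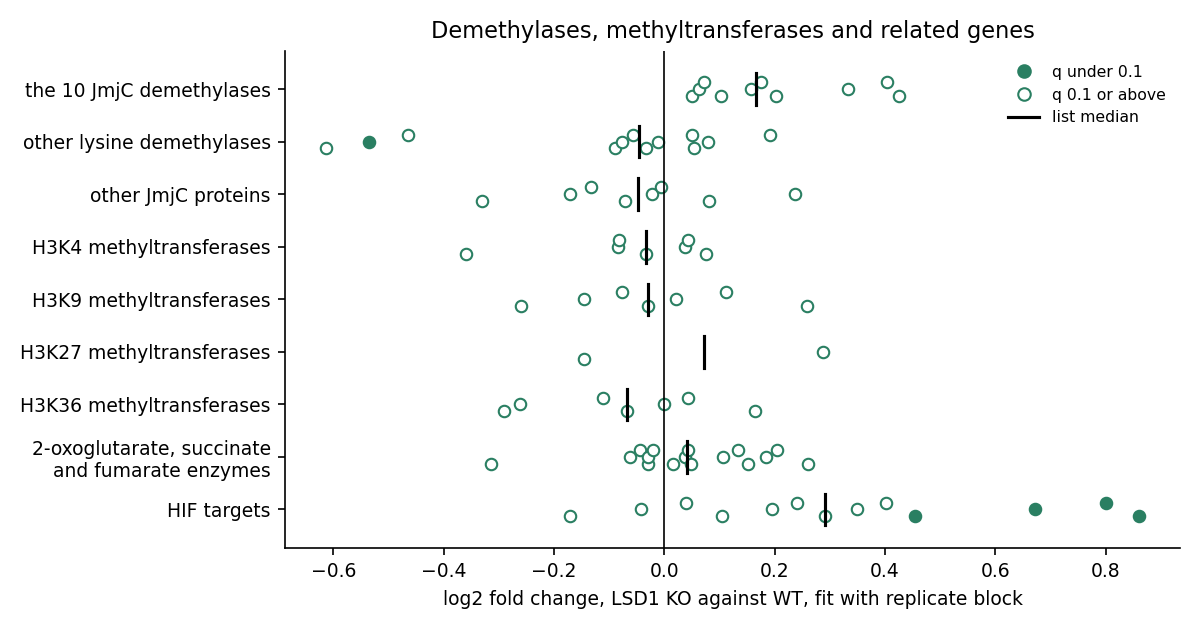
Log2 fold change of LSD1 KO against WT with the replicate block for each tested gene of 9 lists, with genes at a q value under 0.1 filled and the list median as a line. The filled genes are HR among the other lysine demethylases and VEGFA, P4HA1, ANKRD37 and NDRG1 among the HIF targets, and none of the 10 JmjC demethylases is filled.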

How the data were processed

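Gene expression was measured by RNA-seq (NEBNext Ultra library kit) in 3 WT and 3 LSD1 KO HCT116 libraries. The authors trimmed reads with Trimmomatic 0.39, quantified them with Salmon (1.4.0 per the submitters' processing notes) on GENCODE transcripts of GRCh38, and deposited expected counts per gene as whole numbers, unscaled. How transcripts were summed to genes is not given in the sources used here. Symbols were matched by the stable Ensembl identifier for 58395 of 60240 genes.

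Counts were compared with edgeR 4.0.16 in R 4.3.3 (TMM, filterByExpr by group, quasi-likelihood test, Benjamini-Hochberg over all 17672 genes, q value under 0.1). Each standard error was derived from the quasi-likelihood F of that gene, and each 95% interval from the t distribution. The study itself used DESeq2 at the same threshold, and DESeq2 1.42.0 was an alternative here. The limit allowed by a count of 0 (3 counts) was 0.103 to 0.118 CPM, for counting error only. Groups of 3 libraries allow no exact permutation p below 0.1.

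The pairing was checked on deviations from group means. Same-numbered WT and LSD1 KO libraries correlated with r = 0.553, 0.553 and 0.404 (Pearson) over the 17672 genes, which are not independent replicates, and differently numbered ones ranged from -0.516 to 0.0454. A fit with the replicate number as a block was therefore given beside the other.

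The 10 genes and all lists were chosen with earlier results of these data known. The text names the 10 genes, KDM1A, KDM1B, KDM6A, genes of the other lists with a q value under 0.1 in either fit, and the highest and lowest of each list. EPCAM and COL1A1, markers of the cell type check, also passed with the block, EPCAM lower and COL1A1 higher in LSD1 KO. PECAM1 was not matched. Lengths of canonical transcripts and shared 31-base words came from GENCODE v44lift37, positions and promoters from RefSeq on GRCh38.p14. Alternatives were RLE and upper-quartile factors, 2 other low-count filters, DESeq2, the block, a q value under 0.05 and leaving out libraries or pairs. Model fits were tested on simulated data with changes of at least a doubling or a halving. Those changes are larger than any fitted for the 10 genes, so the simulation does not show how often smaller changes are called. Figures used Python 3.11.15 and matplotlib 3.10.9.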

Additional observations from a re-analysis of the deposited data

How the results depend on the processing

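The number of the 10 genes called was 0, and it was 1 with DESeq2 with the replicate block and 1 with the replicate block without pair 2, in both cases KDM4B. It was 0 in the other alternatives. Over all genes, 1 was called. This count became 114 with no filter beyond a nonzero total, 95 with DESeq2's Wald test, 282 with the replicate block, 597 with DESeq2 with the block, between 1 and 26 when 1 library was left out (26 without LSD1 KO replicate 2), and 428, 1055 and 198 with the block and without pair 1, 2 and 3. Among the other listed genes 0 were called, against 5 with the replicate block, 4 with DESeq2 with the block, and 5, 9 and 2 with the block and without pair 1, 2 and 3. KDM1A kept its call, with log2 fold changes from -3.01 to -2.95 over 16 alternatives.

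Of 160 single-gene values of the 10 genes under 16 alternatives, 148 kept their direction and side of the threshold, 2 gained a call (both KDM4B) and 10 changed sign. All sign changes came from leaving out a library or a pair. KDM3B ranged from -0.14 to 0.25 over the fits that left out 1 library, KDM4A from -0.029 to 0.16, KDM4C from -0.066 to 0.25, KDM5A from -0.22 to 0.24 and KDM7A from -0.055 to 0.47. With the block and without pair 2, KDM4C was at -0.096 and KDM5A at -0.050. The cause of these changes was not tested. The number of the 10 genes with every LSD1 KO library above every WT library was 2 (4.23% of all genes). It was also 2 with RLE and with upper-quartile factors, and 3 without replicate 2 (15.1% of all genes). A looser count, of genes with LSD1 KO higher in all 3 same-numbered pairs, was 6 (18.8% of all genes). These settings were chosen after seeing the data. The replicate block changed no call of the 10 genes in edgeR. With 3 libraries a group, the spread between libraries sets which changes can be called.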
